A study of Homo sapiens with 10 samples.

Results

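Keratins are the intermediate filament proteins of epithelial cells, and 8 keratin genes were examined in Caco-2, a human colon carcinoma cell line that forms polarized monolayers. The genes were KRT7, KRT8, KRT10, KRT18, KRT19, KRT20, KRT23 and KRT80, chosen by symbol from the 60554 genes in the tables. The grouping name for them is simple epithelial keratins, but KRT10 is best known from the suprabasal epidermis, so they are called the 8 keratin genes here. The RNA came from 10 libraries of a Caco-2 clone that stably carried dCas9-KRAB, a catalytically dead Cas9 fused to a repressor domain, delivered by lentivirus and selected with puromycin. These cells then received a second lentivirus made from a pKLV guide plasmid with a U6 promoter and a hygromycin gene. In 5 libraries the plasmid was empty (gCtl), in 3 it carried guide g1 and in 2 guide g2, both aimed at the long noncoding RNA LHFPL3-AS2. Every group therefore shares the dCas9-KRAB background, which is described as 1 stable clone. Nothing in the labels says whether libraries of a group came from separate cultures, so p-values measure the spread between these libraries. The labels carry no replicate numbers, and those used here follow the order in which the libraries of a group are listed in the series.

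Keratins assemble as obligate heterodimers of an acidic type I and a basic type II chain, which then build long filaments anchored at desmosomes. In simple epithelia such as the intestinal lining the usual pair is KRT8, the type II chain, with KRT18, the type I chain. KRT19 is a short type I keratin with almost no tail and also pairs with KRT8. KRT20 is a type I keratin of differentiated enterocytes and goblet cells and a pathology marker of colonic tumours, which typically express it without KRT7. KRT7 is the type II keratin of ductal epithelia, KRT80 a type II keratin expressed in many epithelia, KRT10 the partner of KRT1 in the epidermis, and KRT23 a type I keratin described in some colon cancers.

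The members sit in the human keratin clusters. The type II genes KRT80 (chr12:52168996-52192000, minus strand), KRT7 (chr12:52232520-52252186, plus strand) and KRT8 (chr12:52897187-52949954, minus strand) lie on chromosome 12 of GRCh38, beside the 1 type I gene located there, KRT18 (chr12:52948871-52952901, plus strand). The other type I genes lie on the minus strand of chromosome 17, namely KRT10 (chr17:40818117-40822595), KRT20 (chr17:40875941-40885227), KRT23 (chr17:40922696-40937634) and KRT19 (chr17:41523617-41528308). KRT8 and KRT18 overlap on opposite strands by 1084 bases at their upstream ends.

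All keratins share a conserved motif at the end of the central rod, where the coiled coil terminates. Its 7 codons are shown because they let the coding sequences of the members be compared at 1 homologous site. Capitals mark the bases that differ from KRT18, and the sequences were read from the GENCODE 29 version of the main counted transcript, which for KRT7 and KRT80 gave no match.
KRT18: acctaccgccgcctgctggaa
KRT20: acTtaccgccgcctTctggaa
KRT10: acctaccgcAgcctgctAgaa
KRT19: acctaccgcAgcctgctCgaG
KRT23: acGtaccgAcgGctCctggaG
KRT8: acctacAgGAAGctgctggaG
The type I members differed from KRT18 at 2 (KRT20 and KRT10), 3 (KRT19) or 5 (KRT23) of the 21 bases. KRT8, the only type II member with a match, differed at 6.

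Each library held between 3838803 and 8730468 estimated counts, so that 1 count was worth between 0.115 and 0.260 RPM, the level scaled to 1000000 counts per library. In these counts the targeted LHFPL3-AS2 was not lower in the libraries labelled g1 or g2, with 0.840 to 3.73 RPM in gCtl, 2.03 to 3.95 in g1 and 2.16 and 6.01 in g2, from 4.39 to 44.0 counts. Its fitted log2 difference was 0.61 (SE 0.42, edgeR adjusted p = 0.381), and groups are therefore named by their labels. One control library stood apart. On the first principal component of the 11640 tested genes, which held 43.7% of the variance, gCtl replicate 5 lay at -14.9, the other gCtl libraries between -38.2 and -28.2 and the g1 and g2 libraries between 19.3 and 50.0. The tests of the keratins are given with and without it. The 10 intestinal epithelial markers, among them EPCAM, VIL1 and CDX2, all had counts, with a summed level of 1540 to 1724 RPM in gCtl, 1586 to 1774 in g1 and 1648 to 1658 in g2. The 14 markers of other cell types summed to 9.72 to 17.7 RPM in gCtl, 15.3 to 24.4 in g1 and 15.0 to 17.9 in g2, and the basal keratins KRT5 and KRT14 had no count in any library.

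Keratin RNA in these cells was almost wholly KRT8, KRT18 and KRT19. These 3 genes made up 98.2% to 99.4% of the summed RPM of the 8 members in every library. The members in turn made up 98.9% to 99.7% of all keratin RNA, which reached 531 to 1311 RPM. Compared per length, as TPM, which also divides by the length of the transcript, KRT18 was the highest in gCtl at 454 ± 130.0 TPM (SD, n = 5), followed by KRT19 at 307 ± 58.8 and KRT8 at 156 ± 50.3. KRT18 and KRT19 overlapped in that order, with ranges of 283 to 594 and 222 to 379 TPM, while the highest KRT8 value, 206 TPM, lay below the lowest of KRT19. These libraries read 3′ ends and give about 1 read per RNA whatever its length, so the division by length can distort levels between genes. In RPM, without that division, the gCtl means kept the order, at 507 for KRT18, 330 for KRT19 and 234 for KRT8. There KRT8 (125 to 312) and KRT19 (236 to 407) overlapped. KRT10 (3.53 ± 1.96 TPM) and KRT20 (2.13 ± 0.715 TPM) were far lower, and their ranges overlapped.

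The same leading order held in the other groups but, in TPM, with less separation. In g1 the means were 344 ± 101 TPM for KRT18, 209 ± 49.6 for KRT19 and 133 ± 53.8 for KRT8 (n = 3), with overlapping ranges between neighbours. In RPM the lowest KRT18 value in g1, 267, lay just above the highest KRT19 value, 265. In g2 the means were 233 ± 20.5, 222 ± 16.6 and 180.1 ± 31.4 TPM (n = 2). There the ranges of KRT18 and KRT19 overlapped, and the higher KRT8 value, 202 TPM, lay just below the lower KRT19 value, 209.9 TPM. In RPM they were also apart, at 152 and 194 for KRT8 and 228 and 257 for KRT19. KRT20 stood above KRT10 in both groups, at 2.39 ± 0.802 against 0.927 ± 0.231 TPM in g1 and 6.91 ± 0.550 against 1.03 ± 0.187 TPM in g2, without overlap.

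The remaining members were at the edge of detection. KRT7 had 2 counts in all, 1 each in gCtl replicates 2 and 5, KRT23 had 12 counts with a maximum of 0.573 RPM, and KRT80 had 21 counts with a maximum of 1.0 RPM. None of the 3 reached the filter for testing (more than 3 RPM in at least 20% of libraries), so the tests cover 5 of the 8 members. In a fit without that filter over 16904 genes, none of KRT7, KRT23 and KRT80 was called in any comparison, and at this depth no difference in them was detectable.

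A gene was called when its edgeR adjusted p was at most 0.05 and its fold change at least 1.5. With g1 and g2 pooled as the libraries labelled knockdown, 1 of the 5 tested members, KRT10, was called against gCtl, where 19.2% of all tested genes were called 11% lower and 8.14% higher. The median log2 difference of the 5 was -0.47, beside 0.02 over all tested genes. In g1 against gCtl 1 of 5 was called, again KRT10, beside 16.8% of all genes, 9.94% lower and 6.81% higher. In g2 against gCtl 2 of 5 were called, KRT20 higher and KRT18 lower, beside 23.7% of all genes, 10.7% higher and 13% lower. In g2 against g1 1 of 5 was called, KRT20 higher, beside 4.98% of all genes, 1.56% higher and 3.42% lower. The medians of the 5 in these 3 comparisons were -0.55, -0.28 and 0.27, against 0.01, -0.00165 and 0.00887 over all tested genes. The 3 comparisons with gCtl use the same gCtl libraries and are not independent of each other.

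**Figure D1:**
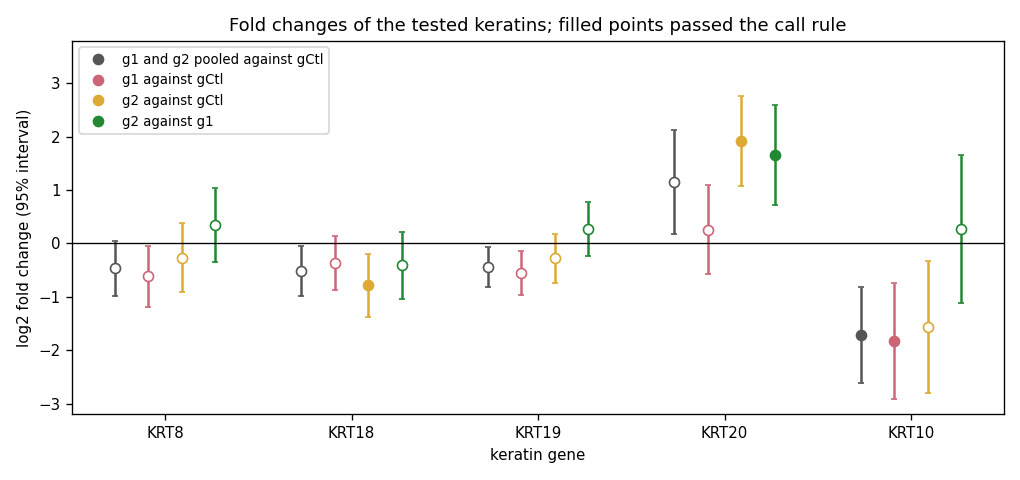
Log2 fold change of the 5 tested keratin genes in each of the 4 comparisons, with points for the edgeR estimate and bars for the 95% interval and filled points for calls. KRT10 lies lowest against gCtl, from -1.83 to -1.56, and KRT20 highest in g2, at 1.91 against gCtl and 1.65 against g1.

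KRT18, the type I partner of KRT8, had the most RNA of the 8. It measured 573, 677, 388, 581 and 316 RPM in gCtl replicates 1 to 5, 366, 267 and 491 in g1, and 248 and 279 in g2. Both g2 libraries lay below every gCtl library, while the g1 values fell within and below the gCtl range. KRT18 fell in g2 relative to gCtl by 0.78 on the log2 scale (SE 0.28, 95% interval -1.38 to -0.19, 1.72-fold, edgeR adjusted p = 0.0494), and the groups did not overlap, as was true of 38% of tested genes. That call lies at the threshold and was lost in 11 of 26 alternative settings, among them leaving out gCtl replicate 1, 2 or 4, g1 replicate 1 or either g2 library, with adjusted p from 0.017 to 0.155 when 1 library was left out and from 0.0162 to 0.411 under the other settings. In g1 the difference was -0.37 (SE 0.24, adjusted p = 0.292), in the pooled comparison -0.52 (SE 0.22, adjusted p = 0.0976), and between the guides -0.41 (SE 0.30, adjusted p = 0.46). In bulk RNA, fewer cells of a type and less RNA per cell cannot be told apart, here and in each result that follows.

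KRT8, the type II chain that all the abundant type I members need as a partner, measured 312, 238, 186, 309.9 and 125 RPM in gCtl, 147, 98.1 and 190.4 in g1, and 194 and 152 in g2. The groups overlapped, mainly through gCtl replicates 3 and 5. No KRT8 difference was called: -0.47 in the pooled comparison (SE 0.24, 95% interval -0.98 to 0.05, adjusted p = 0.171), -0.62 in g1 (SE 0.27, adjusted p = 0.118) and -0.27 in g2 (SE 0.31, adjusted p = 0.548). On the TPM scale the KRT8 difference in g2 turned positive, at 0.26.

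KRT19, the short type I keratin, measured 407, 367, 299, 342 and 236 RPM in gCtl, 223, 159.8 and 265 in g1, and 257 and 228 in g2. Only gCtl replicate 5 reached into the range of the guide libraries. The pooled difference was -0.44 (SE 0.18, 95% interval -0.81 to -0.06, adjusted p = 0.0836), that in g1 -0.55 (SE 0.19, adjusted p = 0.0556) and that in g2 -0.28 (SE 0.22, adjusted p = 0.362), and none was called.

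Several of these calls turned on gCtl replicate 5, which had the lowest level of the gCtl group for KRT8, KRT10, KRT18 and KRT19. Without it KRT18 was called lower in the pooled comparison (-0.66, SE 0.21, adjusted p = 0.0374), and KRT8 (-0.79, SE 0.23, adjusted p = 0.0252) and KRT19 (-0.66, SE 0.18, adjusted p = 0.0187) were called lower in g1. KRT18 in g2 was then -0.91 (SE 0.26, adjusted p = 0.017). The pooled differences of KRT8 (-0.63, adjusted p = 0.0506) and KRT19 (-0.54, adjusted p = 0.0383, under 1.5-fold) were still not called. Nor were KRT18 in g1 (-0.51, adjusted p = 0.108) or KRT8 and KRT19 in g2 (-0.42 and -0.38, adjusted p = 0.249 and 0.192). Leaving out g1 replicate 3, which had the highest KRT18, KRT8 and KRT19 of its group, also brought the KRT8 and KRT19 calls in g1 (adjusted p = 0.0485 and 0.0202) and the pooled KRT18 call (adjusted p = 0.021).

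The balance of the chains also varied between libraries. The KRT18 to KRT8 ratio in RPM was 1.84, 2.85, 2.09, 1.88 and 2.53 in gCtl, 2.49, 2.72 and 2.58 in g1, and 1.28 and 1.83 in g2. Both g2 libraries lay below all gCtl and g1 libraries, though g2 replicate 2 was close to gCtl replicate 1, and 38% of single tested genes separated g2 from gCtl. The KRT19 to KRT18 ratio was 0.711, 0.541, 0.770, 0.589 and 0.745 in gCtl, 0.610, 0.598 and 0.540 in g1, and 1.04 and 0.818 in g2, where both values were higher than in any other library. Only in g2 replicate 1 did KRT19 exceed KRT18. Type I keratin RNA exceeded type II in every library, by a ratio of 3.01 to 4.42 in gCtl, 4.0 to 4.37 in g1 and 2.66 to 3.40 in g2. These ratios are descriptions without a test, and how often ratios of other gene pairs separate the groups was not computed.

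KRT10, the epidermal type I keratin, was a minor transcript here but the member with the largest fall. Its counts were 39, 22, 33, 29 and 9 in gCtl, 9, 5 and 16 in g1, and 12 and 11 in g2. Scaled to depth these were 10.2, 4.22, 5.95, 7.25 and 1.59 RPM in gCtl, 1.56, 1.08 and 1.83 in g1, and 1.96 and 1.5 in g2. The 5 guide libraries lay below gCtl replicates 1 to 4, and gCtl replicate 5 lay among the guide libraries, with 2 of them above it. Only gCtl replicates 1 to 4 exceeded 3 RPM, so KRT10 passed the filter for testing through the group in which it was higher. In the fit without that filter, on the same counts, its pooled difference was -1.72 (SE 0.41, edgeR adjusted p = 0.00731).

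KRT10 fell in the pooled comparison by 1.72 on the log2 scale (SE 0.42, 95% interval -2.62 to -0.82, 3.29-fold, edgeR adjusted p = 0.00943), from 5.83 ± 3.22 RPM in gCtl (n = 5) to 1.59 ± 0.342 (n = 5). It fell in g1 by 1.83 (SE 0.51, 3.55-fold, adjusted p = 0.0199). In g2 the difference was -1.56 (SE 0.58, 95% interval -2.79 to -0.32) with adjusted p = 0.0603, and g2 did not differ detectably from g1 (0.27, SE 0.66, 95% interval -1.12 to 1.66). The g1 call was lost without gCtl replicate 1 (adjusted p = 0.0517), g1 replicate 1 (0.0634) or g1 replicate 2 (0.0736). Without gCtl replicate 5 the differences were -1.97 pooled (adjusted p = 0.00148), -2.08 in g1 (adjusted p = 0.00246) and -1.80 in g2 (adjusted p = 0.0112), and all 3 were called. The pooled call held without any 1 library, with adjusted p from 0.00148 to 0.0331.

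KRT20, the type I keratin of differentiated intestinal cells, was low in gCtl and g1 and higher in g2. Its counts were 11, 22, 6, 13 and 15 in gCtl, 20, 9 and 35 in g1, and 55 and 73 in g2. These gave 2.87, 4.22, 1.08, 3.25 and 2.64 RPM in gCtl, 3.48, 1.94 and 4.01 in g1, and 8.97 and 9.97 in g2. Both g2 libraries lay above all others, with no overlap, and the g1 values lay within the gCtl range. No tested member separated g1 from gCtl without overlap, although 26.6% of tested genes did.

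KRT20 rose in g2 relative to gCtl by 1.91 on the log2 scale (SE 0.40, 95% interval 1.07 to 2.76, 3.77-fold, edgeR adjusted p = 0.00307), from 2.81 ± 1.14 RPM (n = 5) to 9.47 ± 0.703 (n = 2). This call held in all 26 alternative settings, with adjusted p from 0.000279 to 0.0282. In g1 the difference from gCtl was 0.26 (SE 0.40, 95% interval -0.58 to 1.10, adjusted p = 0.69). KRT20 was higher in g2 than in g1 by 1.65 (SE 0.44, 95% interval 0.72 to 2.58, 3.15-fold, adjusted p = 0.0408), where 32.9% of tested genes did not overlap between the guides. That difference lost its call in 9 settings, 6 of which left out 1 library: gCtl replicate 1 or 4, g1 replicate 1 or 2, or either g2 library, with adjusted p from 0.0512 to 0.125. In the pooled comparison KRT20 was at 1.15 (SE 0.46, adjusted p = 0.0803) and was called only without g1 replicate 2 (adjusted p = 0.0328). Without gCtl replicate 5 KRT20 was at 1.90 in g2 (adjusted p = 0.00471), 0.24 in g1 (adjusted p = 0.728), 1.13 pooled (adjusted p = 0.121) and 1.66 between the guides (adjusted p = 0.0378).

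Some other measurements also differed in g2. The goblet cell mucin MUC2 had 2 counts over the 5 gCtl libraries, at most 0.115 RPM in g1, and 4.51 and 5.55 RPM in the g2 libraries. It was outside the tested genes although both g2 values exceeded 3 RPM. Tested genes had also to be protein-coding in the annotation. Among tested genes 38% separated g2 from gCtl and 32.9% separated g2 from g1. The epithelial marker SI, also outside the tested genes, was not highest in g2. It measured 0 to 0.361 RPM in gCtl, 1.29 to 2.86 in g1, and 0.956 and 1.63 in g2. CDH17, the liver-intestine cadherin, was the 1 of 7 tested epithelial markers called in g2, where 10.7% of all tested genes were called higher. Its log2 difference was 0.72 (edgeR adjusted p = 0.013), and 0.42, under 1.5-fold, without g2 replicate 1. The CDH17 difference was also under 1.5-fold, and not called, when scaled by library totals (0.56) or with limma on log2 RPM (0.55). A test against a 1.5-fold change did not call it either. The share of counts from the mitochondrial genome was 12.0% and 16.8% in g2, against 18.3% to 24% in gCtl and 19% to 20.6% in g1. With the mitochondrial genome left out, KRT20 in g2 was at 1.91 (adjusted p = 0.00307) against gCtl and 1.66 (adjusted p = 0.0397) against g1, and the same members were called in all 4 comparisons. The part of the cell makeup in the KRT20 result was not tested.

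The promoters of KRT10 and KRT20, the members with the largest differences, are shown as the 120 bases before the RefSeq start on GRCh38.p14, read on the minus strand that both genes use. Capitals mark the TATA-box letters TATAAA in KRT10 and the letters CATAAA in KRT20, which read TTTATG on the opposite strand.
KRT10, chr17:40822615-40822734: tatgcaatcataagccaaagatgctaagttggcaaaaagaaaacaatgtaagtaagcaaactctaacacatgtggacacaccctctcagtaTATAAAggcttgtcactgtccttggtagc
KRT20, chr17:40885243-40885362: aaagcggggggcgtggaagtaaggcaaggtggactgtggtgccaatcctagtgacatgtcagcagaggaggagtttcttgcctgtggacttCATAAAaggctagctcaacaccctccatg
Both matches lie 29 to 24 bases upstream of the start. Over 34943 RefSeq promoters, 5.64% held TATAAA on either strand of a window of this length and 4.44% held TTTATG, the letters of a CDX-type site. Neither promoter held GGGCGG, the core of an SP1-type site, found in 33.9%, or TGANTCA, an AP-1-type site, found in 3.35%. A match of letters describes the sequence and is no evidence of binding.

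The KRT8 counts were spread over transcripts in a way that differed between libraries. The main transcripts KRT8-001 and KRT8-002 end within 7 bases of each other, where 3′ reads fall, but start 43224 bases apart. KRT8-002 received 47.8%, 24.3%, 47.9%, 48.1% and 11.3% of the KRT8 estimate in gCtl replicates 1 to 5. In g1 it received 4.98%, 0% and 6.09%, and in g2 30.5% and 6.86%. The g1 libraries lay below all gCtl libraries, a separation seen in 16.4% of the 12359 transcripts that could be compared, and g2 replicate 1 lay among the gCtl libraries, while gCtl replicate 5 was the lowest of its group.

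**Figure D2:**
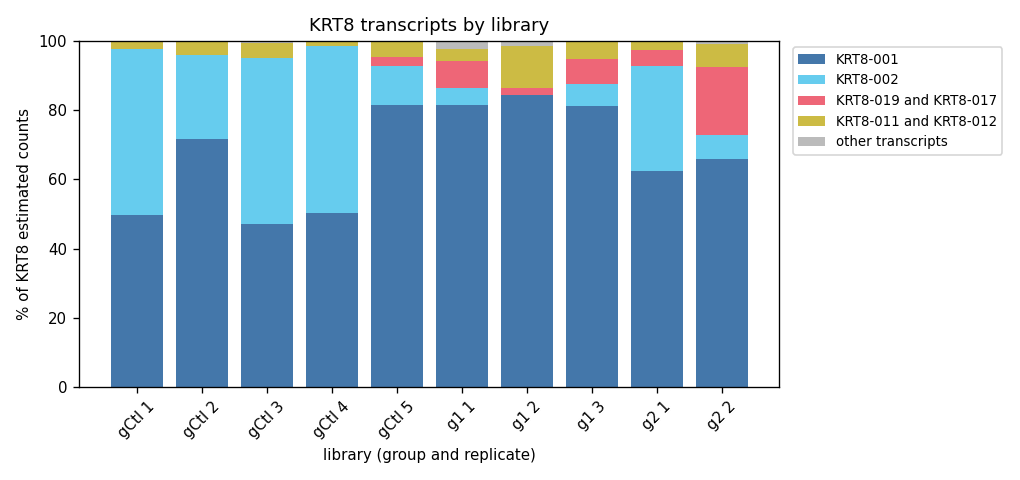
Share of the KRT8 estimated counts, in percent, assigned to KRT8 transcripts or transcript pairs, with a stacked bar from 0 for each of the 10 libraries. KRT8-001 and KRT8-002 together fill 92.8% to 98.5% of the bar in gCtl and 72.8% to 92.8% in the libraries labelled knockdown.

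The short transcripts KRT8-019 and KRT8-017 end 2809 and 3401 bases inside the KRT8 gene end. Together they held no KRT8 counts in gCtl replicates 1 to 4 and 2.42% in gCtl replicate 5, but 7.71%, 1.90% and 7.42% in g1 and 4.61% and 19.7% in g2. All guide libraries had such counts, and gCtl replicate 5 lay within their range. For KRT18, the transcript KRT18-002, which ends 1 base from the main KRT18 transcript, took 2.84% to 9.09% of the estimate in gCtl (6.63 ± 2.49%, n = 5) and 12.4% to 18.4% in the libraries labelled knockdown (14.2 ± 2.43%, n = 5). These groups did not overlap, as was true of 7.32% of the compared transcripts. The transcripts were singled out after their values were seen and carry no test. Where 3′ ends nearly coincide, as in KRT8-001 with KRT8-002 and in KRT18-002 with the main KRT18 transcript, the split rests on the estimation by the pseudoaligner. The TPM of KRT8 moves with the split through the transcript length.

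Reads of the abundant members can also be shared with pseudogenes. Of the 31-base words in the last 500 bases of the main transcript, 61.7% in KRT18 and 40.6% in KRT8 occurred in other genes, among them 58 and 29 pseudogenes, against 8.09% in KRT19 and none in KRT10 and KRT20. The 50 KRT8 pseudogenes held 1.94% of the joint estimate and the 68 KRT18 pseudogenes 0.723%. Adding the pseudogene counts to the parent genes left the other calls in place but moved KRT18 in g2 past the threshold (adjusted p = 0.0535). It is not stated whether counting used strand, so any KRT8 and KRT18 reads in their 1084-base overlap cannot be told apart. The overlap, from base 52948871, lies at the upstream ends, and these libraries read 3′ ends. The 3′ ends of KRT8-001 (base 52897187) and of the main KRT18 transcript (base 52952900) lie outside the overlap. How many reads fell in the overlap was not counted. Of the KRT8 transcripts whose upstream ends reach into the overlap, the long KRT8-001 held 47.1% to 81.6% of KRT8 in gCtl and 62.3% to 84.3% in the libraries labelled knockdown. These are shares of whole transcripts, not of reads in the overlap. The short upstream KRT8-011 and KRT8-012 together held 1.52% to 4.49% and 2.35% to 12.2%.

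The members varied together to different degrees over the 10 libraries, which also differ in depth and whose labels name no batch. On log2(CPM + 1), Pearson's r was 0.94 between KRT8 and KRT19, 0.78 between KRT18 and KRT19 and 0.75 between KRT18 and KRT8. After subtraction of the group means these were 0.94, 0.90 and 0.87. KRT10 had r = 0.83 with KRT8 and 0.84 with KRT19, or 0.84 and 0.73 within groups. KRT20 had r = -0.19 with KRT18, 0.18 with KRT8, 0.09 with KRT19 and -0.32 with KRT10 over all libraries, and 0.75, 0.52, 0.58 and 0.03 within groups. Of 7580 tested genes with a mean RPM of at least 10, the patterns most like the members were those of MED8 (r = 0.917) and TBC1D20 (0.882) for KRT18, SNF8 (0.959) and ATP5D (0.934) for KRT8, and KIFC3 (0.940) and SIGIRR (0.931) for KRT19. For KRT20 they were NHLRC2 (0.923) and XRCC4 (0.913), and for KRT10 AHSA1 and RPS7 (both 0.978).

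No other keratin came near the levels of KRT8, KRT18 and KRT19. Of 58 other genes with a keratin symbol, 44 had no count, and only KRT15, a type I keratin of basal epithelia, passed the filter, at 1.28 to 4.45 RPM, in the range of KRT10 and KRT20. Its pooled difference was 0.32 (SE 0.39, adjusted p = 0.587). KRT1, the epidermal partner of KRT10, had no count in any library.

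The proteins that tie keratin filaments to desmosomes and to other filaments were measured alongside. Of 10 cytolinker and anchor genes 7 were tested, and 1 was called in each comparison with gCtl: DST, a plakin of hemidesmosomes that also binds actin and microtubules. Over all tested genes, 8.14% were called higher in the pooled comparison, 6.81% in g1 and 10.7% in g2. DST measured 228 to 287 RPM in gCtl, 334 to 1014 in g1 and 534 to 587 in g2, with all guide libraries above all gCtl libraries, a separation seen in 15.5% of tested genes. It rose by 1.35 in the pooled comparison (SE 0.24, edgeR adjusted p = 0.00132), 1.37 in g1 (adjusted p = 0.00202) and 1.32 in g2 (adjusted p = 0.00403). The other 6, among them DSP, which anchors keratins at desmosomes at 685, 761 and 781 mean RPM in gCtl, g1 and g2, were not called. The median log2 difference of the 7 in the pooled comparison was 0.26, beside 0.02 over all tested genes.

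Of 16 genes for proteins that bind or modify keratins 15 were tested, and 2 were called lower and none higher in the pooled comparison. Beside them, 11% of all tested genes were called lower and 8.14% higher. TRADD, the TNF receptor adaptor that binds KRT18 and KRT14, fell by 0.91 (adjusted p = 0.0314), from 8.75 to 14.5 RPM in gCtl to 4.52 to 8.71 in g1 and 2.59 and 5.22 in g2, a call that was lost without gCtl replicate 1, 2, 3 or 5 or g1 replicate 2 (adjusted p = 0.0502 to 0.0702). OGT, the enzyme that adds O-GlcNAc to KRT8, KRT18 and many other proteins, fell by 0.83 (adjusted p = 0.00628). In g2, where 13% of all tested genes were called lower, these 2 were called lower (TRADD by 1.38, adjusted p = 0.0132, and OGT by 1.07, adjusted p = 0.0056). The 14-3-3 gene YWHAE (by 0.91, adjusted p = 0.00146) and FAM83H, which recruits casein kinase 1 to keratins (by 0.83, adjusted p = 0.00886), were also called lower in g2. Without g2 replicate 2 the TRADD, OGT and FAM83H calls in g2 were lost (adjusted p = 0.167, 0.0955 and 0.0661). In g1, where 9.94% of all tested genes were called lower, only OGT was called (by 0.69, adjusted p = 0.0265). That call was lost without gCtl replicate 1 or 4 or g1 replicate 1 or 3 (adjusted p = 0.0614 to 0.107). YWHAE was lower in g2 than in g1 (-0.75, adjusted p = 0.0257) and YWHAG, another 14-3-3 gene, higher (0.82, adjusted p = 0.0121), calls that were lost without g1 replicate 2 (adjusted p = 0.0566 and 0.0511) or g2 replicate 2 (0.0936 and 0.0608) and, for YWHAE, without g1 replicate 1 (0.103).

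**Figure D3:**
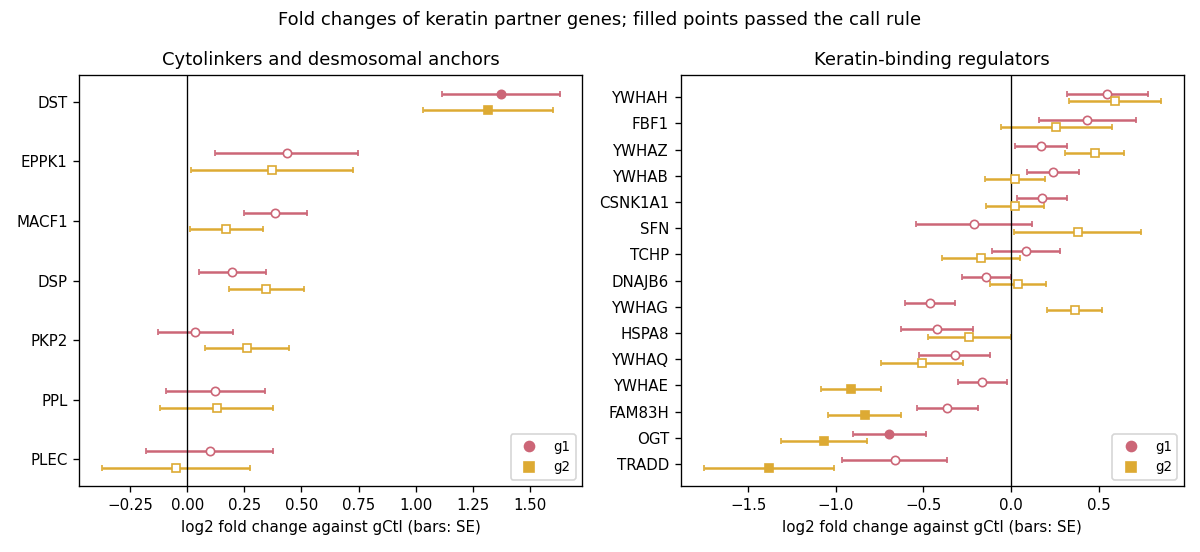
Log2 fold change against gCtl, with SE, of the 7 tested cytolinker and anchor genes and the 15 tested keratin-binding regulators in g1 and in g2, with filled points for calls. DST stands apart at 1.37 and 1.32, and OGT is filled below 0 in both groups.

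Of 7 kinases and caspases that act on keratins 6 were tested. None was called in the pooled comparison or in g1, and CASP6, the caspase that cleaves lamins and KRT18, was called higher in g2 (0.92, adjusted p = 0.00411), from 15.9 to 29.0 RPM in gCtl to 36.3 and 41.5. Of all tested genes 10.7% were called higher in g2. On the TPM scale the CASP6 difference was 0.53 and not called (limma adjusted p = 0.167). Of the 13 other intermediate filament genes 5 were tested, and LMNB1, a nuclear lamin, was called higher in g2, beside the same 10.7% of all tested genes. Its difference was 0.76 (edgeR adjusted p = 0.0107). Without g2 replicate 1, which leaves 1 g2 library, it was 0.68 and the call was lost. On the TPM scale LMNB1 was at 0.57 and not called (limma adjusted p = 0.0982).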

How the data were processed

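RNA of 10 Caco-2 libraries was sequenced by the authors with QuantSeq, which reads the 3′ ends of polyadenylated RNA, and pseudoaligned with Kallisto (version 42.5 in the submitters' processing notes). The authors deposited estimated counts per transcript, neither normalized nor pooled. At least 75.0% of the counts above 0 were not whole, and the depth of each library is given with the results. Here they were summed per gene identifier, and RPM (over all estimated counts) and TPM (from annotated lengths) were computed.

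Rounded sums of the protein-coding genes that exceeded 3 RPM in 20% or more of the 10 libraries were fitted with edgeR 4.0.16 in R 4.3.3 (TMM, glmQLFit, glmQLFTest, Benjamini-Hochberg over 11640 genes), in a fit with g1 and g2 pooled and a fit with 3 groups. The common biological coefficient of variation was 0.238 and 0.205. LHFPL3-AS2 was tested over 23413 genes of any biotype with at least 10 counts. DESeq2 1.42.0, limma 3.58.1 on log2 values with a pseudocount of 1 or 0.1, other scalings and filters, and leaving out each library were the alternatives. The scripts were tested on simulated data. An exact permutation test had been planned for single genes and was not used, because each gene is compared in the fits across all genes.

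Named genes were the 8 members, genes of the lists called in at least 1 comparison, other keratins that passed the filter, and the 2 genes most correlated with each tested member. VIM, LMNA, DSP, MUC2 and SI were singled out after their values were seen. The members and lists were chosen with earlier results of these data known.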

Additional observations from a re-analysis of the deposited data

Results flagged for a closer look

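Over 30 groups of values for the members, 3 held a library far from the rest of its group (the gap to the nearest library, as a share of the group's range, above Dixon's 95% limit), and chance flags about 1 group in 20. All flagged groups were shares of transcripts singled out after their values were seen, so that rate does not apply to them. The share of KRT8 counts assigned to KRT8-002 was 30.5% in g2 replicate 1 and 0% to 6.86% in the other libraries labelled knockdown, a gap of 0.775 of the range. The joint share of KRT8-019 and KRT8-017 was 2.42% in gCtl replicate 5 and 0% in the other gCtl libraries, a gap of 1. Where all other values are 0, any value above 0 gives that gap, whatever its size. The share of KRT18-002 was 18.4% in g1 replicate 2, a gap of 0.730 of the range of the libraries labelled knockdown. KRT20 differed between the guides, with a log2 difference of 1.65 between g2 and g1 (edgeR adjusted p = 0.0408), as a tested difference.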

How the results depend on the processing

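Over all alternatives the tested members gave 510 values, of which 469 kept their direction and their side of the threshold, 25 lost a call, 14 gained one and 2 changed sign. The sign changes were KRT8 in g2 on the TPM scale (0.26) and KRT20 in g1 when 1 library was left out (-0.044 without g1 replicate 3, up to 0.498 without g1 replicate 2), and KRT15 in the pooled comparison turned to -0.026 on the TPM scale. None of these was called. A test against a 1.5-fold change (glmTreat) called 488 genes in the pooled comparison, 506 in g1, 802 in g2 and 92 between the guides, with 0, 0, 1 and 0 members. In g1 2 members were called with library totals, with limma at either pseudocount on RPM, where KRT19 joined KRT10. In g2 1 member was called with DESeq2 size factors, with upper-quartile scaling, and with library sizes over the tested genes (an alternative chosen after seeing the data), where KRT18 was lost. Between the guides 0 were called with genes of all biotypes and with limma at the pseudocount of 0.1. KRT10 was called in g2 by DESeq2 (adjusted p = 0.0351), with library totals (0.0396) and without the filter (0.0403), within a range of 0.0112 to 0.266. With library totals the share of lower calls was 69.43% against 57.53% in the pooled comparison, 73.32% against 54.91% in g2 and 83.44% against 68.62% between the guides, and the median of all genes in g2 shifted to -0.159. Leaving out 1 library gave 1703 to 2424 genes in the pooled comparison, 1256 to 2260 in g1, 1498 to 3111 in g2 and 267 to 859 between the guides, and 1 to 2, 0 to 3, 1 to 3 and 0 to 1 members. With g2 left at 1 library, that library is assumed to vary like the other groups. No paired analysis was possible because the labels carry no replicate numbers. Depth limits KRT7, KRT23 and KRT80, with 21 counts or fewer in all, and makes KRT10 and KRT20 rest on 5 to 73 counts per library.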

Other observations

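Among the other intermediate filament genes, VIM, the vimentin of mesenchymal cells and of many dedifferentiated epithelial cells, was too low to be tested. It measured 0 to 0.824 RPM in gCtl, 2.24 to 3.58 RPM in g1, and 0.489 and 1.62 RPM in g2, so that all 3 g1 libraries lay above all others. Among tested genes 26.6% separated g1 from gCtl and 32.9% separated g2 from g1. LMNA, a nuclear lamin of differentiated cells, was not called in any comparison, with means of 72.9, 54.5 and 101 RPM in gCtl, g1 and g2. Among the 14 markers of other cell types 3 were tested. Of these, CD14 exceeded 3 RPM only in gCtl libraries, so it passed the filter through the group in which it was higher. CD14, a monocyte marker that some epithelial cells also express, was lower in the pooled comparison (log2 difference -1.67, edgeR adjusted p = 0.011) and in g2 (-2.63, adjusted p = 0.00531, and 0.0719 without g2 replicate 2), from 2.47 to 4.0 RPM in gCtl to at most 1.56 RPM. PECAM1, an endothelial marker, was higher in g1 (1.29, adjusted p = 0.0214), a call that was lost without g1 replicate 2 (adjusted p = 0.116) or g1 replicate 3 (0.0865). On the TPM scale the PECAM1 difference in g1 was 0.06 (limma adjusted p = 0.913). The genes most like KRT10 had mean levels of 23.2, 14.8 and 14.5 CPM (AHSA1, a chaperone activator) and 812, 409 and 480 CPM (RPS7, a ribosomal protein) in gCtl, g1 and g2.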
